A study of Homo sapiens with 21 samples.

Results

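In SUM149PT, an inflammatory breast cancer cell line, 109 protein-coding genes were read in every library of the parental line and 5 of its clones and were almost without reads in the clone named M2. They were selected on the M2 counts themselves: the rounded expected counts of a gene, summed over the 3 M2 libraries, came to at most 3, and each of the other 18 libraries held at least 30. Symbols starting with HOX, PCDH, ZNF, FOX, CDH, CXCL, CLDN, KLK, S100, COL, ARMCX or BEX were left out by the rule. Each table listed 60617 genes, 19922 of them protein-coding and 19077 of these outside the left-out symbols. Of the latter, 10438 had 30 counts in each of the 18 libraries, and the 109 genes were 1.04% of them.

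The 21 libraries of poly(A) RNA came from 7 untreated lines with 3 libraries each: the uncloned line (Parental) and the clones E, EM1, EM2, EM3, M1 and M2, all derived from SUM149PT, which the labels describe as lacking estrogen and progesterone receptors. The labels give no genotype beyond the line, each clone name stands for 1 clone, and whether replicates of 1 line were grown apart is not stated, so every p-value below measures only the spread between these libraries. Library totals, in units of 1e6 counts, were 24.6 to 48.1, and the M2 libraries held 110.6 together.

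The clone libraries fell into a short and a long set by the mean effective length of the genes, with E wholly in the short set, joined by the replicate 3 libraries of the remaining clones. The labelled carcinoma line was checked on its markers. In M2, VIM, an intermediate filament of mesenchymal cells, stood at 2.1e+03 ± 552 TPM (TPM, a level scaled for transcript length and library; SD, n = 3), and EPCAM, an epithelial surface protein, at 0.127 ± 0.0451 TPM. KRT8, a keratin of simple epithelia, was still at 525 ± 99.5 TPM in M2, and FAP, a mesenchymal surface protease, was at 0.0433 ± 0.0493 TPM. Of 12 markers of blood, immune and endothelial cells, 8 had at most 3 counts over the M2 libraries, and their summed level of 16.4 to 41.3 TPM there was mostly CD68, a lysosomal protein.

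Many genes start in stretches rich in CpG dinucleotides, and methylation of these stretches is a known form of silencing that is copied through cell division. MGMT, which removes alkyl groups from guanine in DNA, PYCARD, the adaptor of the inflammasome, and the retinoid-responsive gene RARRES1 are known in tumours as genes whose promoters can be methylated. The files used here hold RNA levels, so the part of methylation in these genes was not tested.

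Windows at the starts of 5 genes are shown because they differ widely in CpG content. Each line gives the 250 bases before the RefSeq start of the gene, 5′ to 3′ on the gene's own strand, from the assembly GRCh38.p14, with CG dinucleotides in capitals. MGMT lies on the plus strand (chr10:129466991-129467240, 36 CG). PYCARD (chr16:31202761-31203010, 16 CG), TBX20 (chr7:35254101-35254350, 31 CG), RARRES1 (chr3:158732458-158732707, 23 CG) and GSTM3 (chr1:109741039-109741288, 1 CG) lie on the minus strand. The RefSeq start lies inside the gene as GENCODE 29 gives it by 690 bases for PYCARD, 239 for RARRES1, 57 for MGMT and 47 for TBX20, and the starts are the same for GSTM3. The PYCARD window therefore lies wholly within the GENCODE gene (chr16:31201485-31203450), and most of the RARRES1 window does too.
MGMT: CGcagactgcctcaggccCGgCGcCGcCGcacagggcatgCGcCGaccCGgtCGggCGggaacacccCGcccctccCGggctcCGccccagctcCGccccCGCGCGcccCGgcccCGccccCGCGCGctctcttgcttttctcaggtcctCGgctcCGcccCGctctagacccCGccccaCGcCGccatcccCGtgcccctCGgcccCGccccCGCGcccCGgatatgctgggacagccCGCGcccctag
PYCARD: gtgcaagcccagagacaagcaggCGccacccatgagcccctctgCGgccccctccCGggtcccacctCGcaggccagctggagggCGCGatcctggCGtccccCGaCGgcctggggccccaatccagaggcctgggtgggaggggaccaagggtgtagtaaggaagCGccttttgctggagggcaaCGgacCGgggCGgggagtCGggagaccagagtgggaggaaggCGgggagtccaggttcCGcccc
TBX20: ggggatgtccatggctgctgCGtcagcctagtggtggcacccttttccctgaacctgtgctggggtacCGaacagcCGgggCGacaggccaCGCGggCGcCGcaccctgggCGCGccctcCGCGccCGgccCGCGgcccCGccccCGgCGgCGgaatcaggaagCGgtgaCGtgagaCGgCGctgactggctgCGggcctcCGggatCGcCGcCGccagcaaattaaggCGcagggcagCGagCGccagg
RARRES1: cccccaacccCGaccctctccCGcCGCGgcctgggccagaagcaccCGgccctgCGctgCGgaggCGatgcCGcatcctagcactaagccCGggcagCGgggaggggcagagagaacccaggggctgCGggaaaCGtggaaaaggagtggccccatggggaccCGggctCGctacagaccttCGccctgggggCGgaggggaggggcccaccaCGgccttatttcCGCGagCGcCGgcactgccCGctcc
GSTM3: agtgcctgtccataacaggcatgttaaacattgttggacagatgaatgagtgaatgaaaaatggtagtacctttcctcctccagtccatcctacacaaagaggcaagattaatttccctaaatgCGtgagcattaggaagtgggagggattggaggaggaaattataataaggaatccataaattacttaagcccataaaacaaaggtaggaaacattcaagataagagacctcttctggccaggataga

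The MGMT and TBX20 windows were dense with CG, and the GSTM3 window held 1, although the first 300 bases of the GSTM3 transcript, which lie on the other side of the start, held 34. Of the 109 genes, 80 (73.4%) had an entry in the RefSeq promoter table, too few to describe the whole group, so the first 300 bases of a GENCODE 29 transcript were used instead, for 108 of 109. Their observed over expected CpG ratio, which is near 1 where CpG has not been depleted, had a median of 0.677 (quartiles 0.464 and 0.882). For 9764 of the 9808 genes with at least 30 counts in all 21 libraries, those with a transcript, the median was 0.806 (quartiles 0.651 and 0.93).

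Of the 108, 59 (54.6%) had a CpG-rich start, defined as a GC content of at least 55% and a ratio of at least 0.65, beside 65.5% of the 9764 genes. A CpG-poor start, with a ratio under 0.4, was found for 20 (18.5%), beside 7.47% of the 9764. By this window the group held both kinds of start. TBX20 (0.836), WT1 (0.862), RARRES1 (0.746) and FST (1.01) were CpG-rich, PYCARD (0.632) was just under the limit, and STRA6 (0.234) was CpG-poor. These shares are a description, with no test, and hold for the transcript window only. The RefSeq promoter window, 250 bases before to 50 after the start, could differ in either direction. MAP2K6 had a ratio of 0.227 by transcript and 0.902 by promoter, and RPS6KL1 had 0.256 and 0.724. RAB42 went the other way, at 0.963 and 0.278, as did GSTM3, at 0.953 and 0.0806. WT1 had 0.575 by promoter and was not CpG-rich there.

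**Figure D1:**
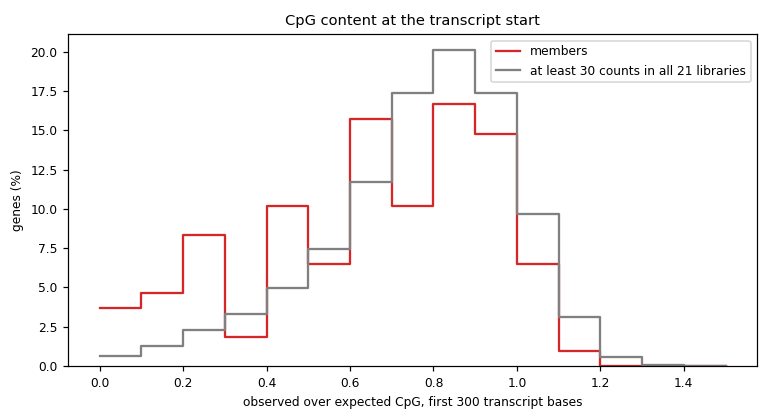
Share of genes (%, y axis) by observed over expected CpG ratio in the first 300 transcript bases (x axis), for the members, the 109 genes silent in M2 alone (red), and for genes with at least 30 counts in all 21 libraries (grey). The members have more genes at ratios under 0.3 and fewer between 0.7 and 1.0, with medians of 0.677 and 0.806.

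In M2 the 109 genes had 152 counts in all, 39, 41 and 72 in the 3 libraries. No count at all was assigned to 31 of them, and 28, 26 and 24 genes had sums of 1, 2 and 3. A sum of 3 corresponds to 0.0271 CPM (counts per 1e6 counts) in the pooled M2 libraries. These values chose the genes, so no test is given for them. For the 31 genes at 0, the pooled level in the other libraries was at least 80.2-fold (RPS6KL1) to 1092-fold (USP43) higher than a floor of 3 counts over the M2 libraries. For the 78 others, ratios of the pooled levels ran from 123 (ALX1, 95% interval 42.1 to 597) to 7119 (FST, 1278 to 2.812e+05), with intervals that cover counting error only.

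The M2 sums of other genes ran on from these limits. Among the 10438 genes, 109 had an M2 sum of 0 to 3, 74 had 4 to 10, 105 had 11 to 30, and 167 had 31 to 100. The genes just inside by their lowest other library, with 31 counts, were CCDC33, GRB7, SH3GL2, ENSG00000257767 and ENSG00000270149, and LARGE2, with 28, lay just outside. FAP and the epithelial transcription factor EHF lay just outside at the other limit, with M2 sums of 4. Without M2 replicate 3, and with the limit of 3 kept, the rule took 164 genes in place of 109. Leaving out a library can only add genes.

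No other line had a comparable set. With E in the place of M2 the same rule took 1 gene, TRMT10B, and with Parental, EM1, EM2, EM3 or M1 it took 0. Another 17 protein-coding genes were silent in M1 and M2 together. Left out by symbol were 15 genes that met the same limits, 11 of them ZNF genes, and a further 35 genes of other types met them too.

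**Figure D2:**
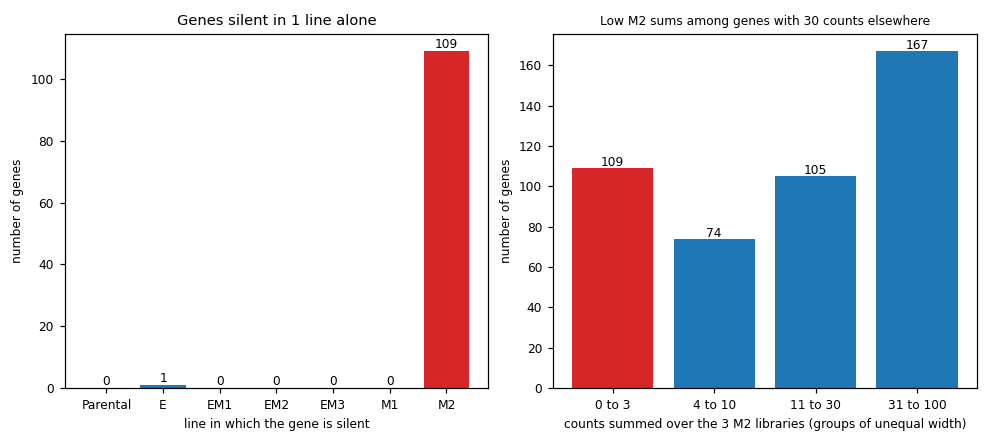
Left, the number of protein-coding genes (y axis) that the same rule takes when each line (x axis) stands in the place of M2: 109 for M2, 1 for E and 0 for the other 5. Right, the number of genes with at least 30 counts in each of the 18 other libraries (y axis) by their counts summed over the M2 libraries (x axis), with 109 at 0 to 3, 74 at 4 to 10, 105 at 11 to 30 and 167 at 31 to 100.

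The genes were expressed at modest levels where they were on. Their mean TPM over the 18 other libraries had a median of 5.51 (quartiles 2.92 and 10.6), beside 19.3 (7.82 and 49) for the 10438 genes. The highest were TSTD1 (57.39 TPM), a sulfurtransferase, and MLPH (57.14 TPM), the melanophilin that links vesicles to myosin. Their TPM varied more between the other 6 lines than that of the 10438 genes: the highest line exceeded the lowest by a median of 3.16-fold, beside 1.91-fold. The 10438 genes were higher in level, and no comparison matched for level was made. TPM and counts could also disagree. For ANKRD18A, at 31.3-fold, the log2 difference of M1 minus EM was -3.98 by TPM and -0.91 by counts. The fold was over 10 for 16 genes (14.7%, beside 2.4%) and under 2 for 25 (22.9%, beside 54.2%). The lowest of these lines was E for 38 genes (34.9%, beside 44.5% of the 10438) and M1 for 35 (32.1%, beside 19.1%). The highest was M1 for 28 (25.7%, beside 34.4%) and EM2 for 25 (22.9%, beside 13%).

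**Figure D3:**
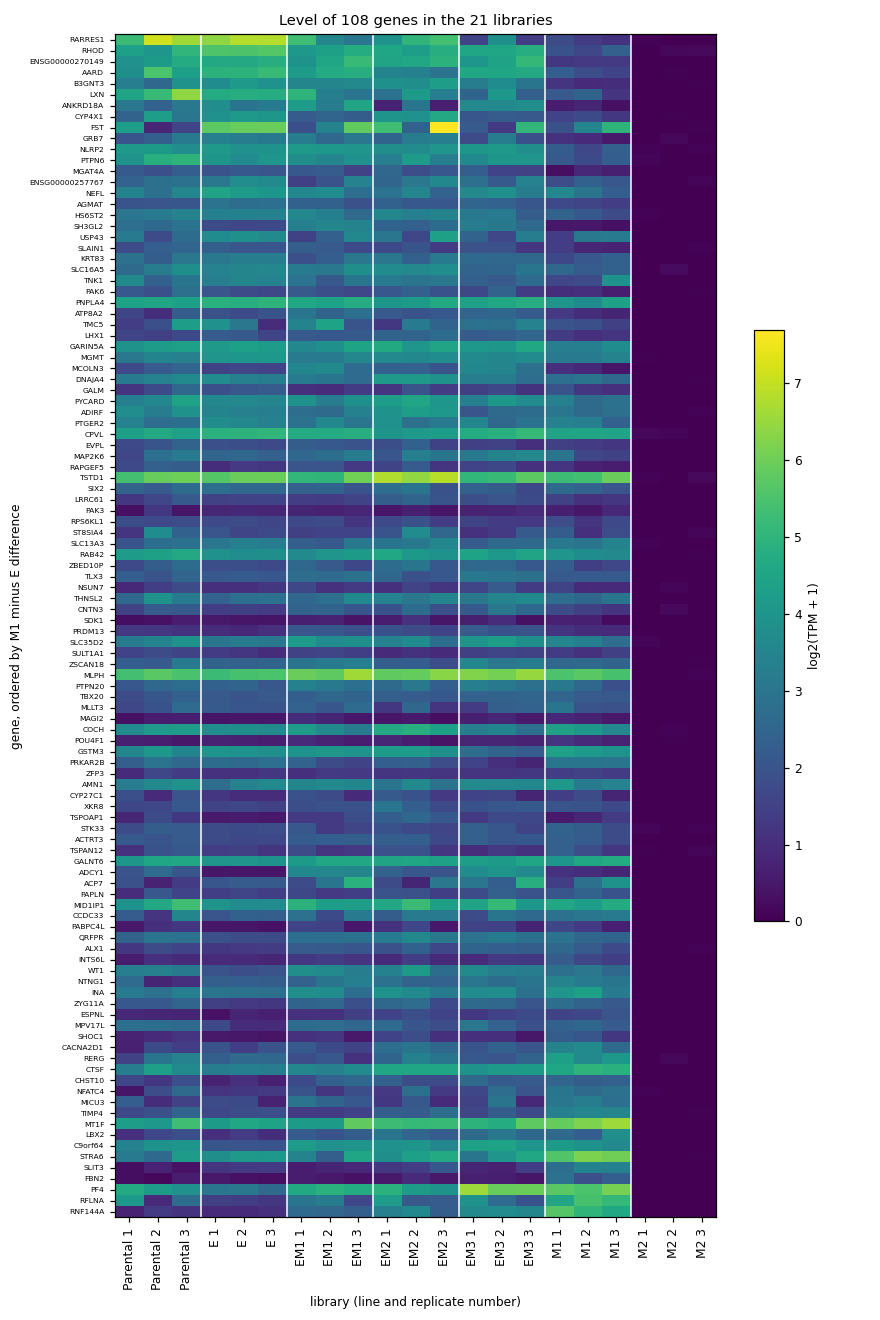
Level of 108 of the 109 genes (rows, ordered by the M1 minus E difference) in the 21 libraries (columns, by line and replicate), as log2(TPM + 1). The 3 M2 columns are dark throughout, as the rule requires, and the rows at the top and bottom differ most between M1 and E.

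Developmental transcription factors made up 9 of the 109 genes: WT1, ALX1, POU4F1, LHX1, SIX2, LBX2, TLX3, PRDM13 and TBX20. WT1, a zinc finger regulator of kidney and gonad development, stood at 8.84, 9.3 and 7.61 TPM in Parental, 2.92, 2.58 and 2.89 in E, 13, 11.9 and 8.58 in EM1, and 9.36, 17.2 and 5.54 in EM2. It stood at 11.9, 8.87 and 8.42 TPM in EM3, 6.17, 7.22 and 4.92 in M1, and 0 in all 3 M2 libraries. Its 3 E libraries were below every other library outside M2. TBX20, a T-box factor of heart development, was among the 5 steadiest of the 109 genes, at 2.46 to 4.94 TPM in the 18 libraries, and had no count in M2.

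WT1-AS, a noncoding gene whose start lies 112 bases from that of WT1, met the same limits with an M2 sum of 3. LHX1-DT, 124 bases from the start of the LIM homeobox gene LHX1, also had an M2 sum of 3. These were 2 of the 35 genes of other types that were silent in M2 alone. Of all 885 such genes with 30 counts in the other 18 libraries, 5 started within 5000 bases of a start of the 109.

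The retinoid pathway was represented by STRA6, RARRES1 and CYP27C1. In this pathway retinol enters the cell through STRA6 and is turned into an acid that acts on nuclear receptors. RARRES1, named as a retinoid-responsive gene, stood at 36.9, 142 and 96.5 TPM in Parental, 84.7, 113 and 112 in E, 38.8, 10.6 and 7.15 in EM1, and 14.1, 31.8 and 40.9 in EM2. In EM3 it stood at 1.95, 13.5 and 1.65 TPM, in M1 at 2.43, 1.5 and 1.2, and in M2 at 0.05, 0 and 0.01. Parental and E were high, the EM clones intermediate and overlapping both M1 and Parental, and M1 low.

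STRA6 ran the other way among the lines. It stood at 13.1, 16.5 and 16.3 TPM in E, 47.9, 70.9 and 64.2 in M1, and 0.01, 0 and 0.03 in M2. The M1 libraries lay above all other libraries, of which the highest was at 24.9 TPM in EM2. CYP27C1, a cytochrome P450 that desaturates retinoids, was at 1.08 ± 0.2 TPM in E and 1.63 ± 0.847 in M1 and passed no test among the lines. RARRES1 thus was lower in M1 than in E, STRA6 was higher, and M2 had at most 3 counts of each of the 3 genes.

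Another 10 genes act in DNA repair, detoxification or small-molecule metabolism. MGMT stood at 7.42, 10.2 and 9.28 TPM in Parental, 15, 15.4 and 16.1 in E, 7.77, 8.12 and 10.7 in EM1, and 11.4, 11.1 and 12.2 in EM2. In EM3 it stood at 11.5, 10.6 and 12.1 TPM, in M1 at 7.86, 8.15 and 9.78, and in M2 at 0.03, 0 and 0, the first of these being 1 read. E, wholly in the short set, was above all other libraries, and the 18 libraries stayed within a narrow range. In EM1, EM2, EM3 and M1 the highest library was replicate 3, of the same set. GSTM3, a glutathione transferase, was at 17 ± 3.17 TPM in M1 and 4.72 ± 1.01 in EM3. It was at 13.9 in E, 14.9 in EM1 and 16.3 in EM2, and it was not called between M1 and E. MT1F, a metallothionein that binds zinc and copper, was at 74.5 ± 18.1 in M1 and 20.6 ± 3.08 in E. It passed no test among the lines (M1 minus E, log2 fold 1.08 ± 0.57, SE). PNPLA4, a lipase that can act on retinyl esters, was at 29.2 ± 1.87 in E and 15.8 ± 3.93 in M1.

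The inflammation list held 16 genes, of which PYCARD and NLRP2 were members. PYCARD stood at 9.01, 11.1 and 20.6 TPM in Parental, 11, 11.3 and 10.3 in E, 14.1, 8.38 and 13.6 in EM1, and 18.3, 22.2 and 15.4 in EM2. In EM3 it stood at 8.94, 16.1 and 12.2 TPM, in M1 at 9.23, 5.33 and 6.36, and it had no count in M2. NLRP2, a sensor protein of the same family of complexes, was at 15 ± 1.67 TPM in E and 3.35 ± 1.09 in M1. PF4, a platelet chemokine, was at 6.61 ± 1.23 TPM in E, 54.9 ± 12 in M1 and 71 ± 18.9 in EM3, with no count in M2.

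Of 16 genes of the desmosome and cornified envelope, EVPL, the envoplakin of that envelope, was the 1 member, at 2.52 ± 0.239 TPM in E and 1.53 ± 0.205 in M1. None of 18 epithelial transcription and splicing regulators was a member. Of those, 6 had an M2 sum of at most 3 and failed the other limit, 3 of them only in M1. None of 14 keratins and none of 11 laminin and integrin genes on the lists had an M2 sum of at most 3. That does not mean that they kept their level. Of the 14 keratins, 10 had 30 counts in each of the 18 other libraries and 4 had 30 in each M2 library. For the 11 laminin and integrin genes these numbers were 9 and 8. KRT5, with an M2 sum of 29, was at 0.363 ± 0.131 TPM in M2, 33.2 ± 6.45 in M1 and 778 ± 46.9 in E. KRT83, a hair keratin that is on none of the lists, was a member with an M2 sum of 1.

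**Figure D4:**
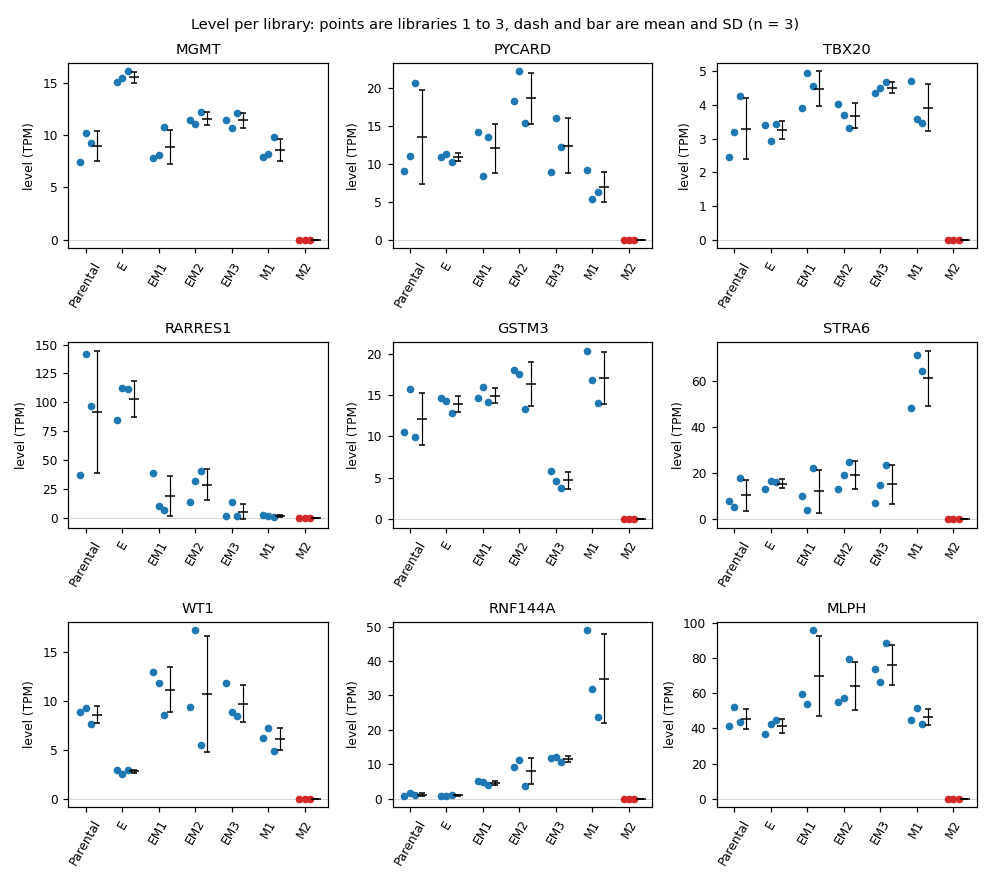
Level in TPM (y axis) of 9 of the genes in each library (points, replicates 1 to 3 from left to right) of the 7 lines (x axis), with the mean and SD of each line (dash and bar, n = 3). M2 (red) is at or near 0 in every panel, RARRES1 falls from 142 TPM in a Parental library to 1.2 in an M1 library, and STRA6 and RNF144A are highest in M1.

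How the genes differed among the lines other than M2 was outside the rule and was tested in 4 comparisons, fitted over all 18632 genes that passed a low-count filter (edgeR quasi-likelihood F-test, Benjamini-Hochberg adjusted p under 0.05). All 109 passed the filter. M1 minus E and M1 minus EM share the M1 libraries, and E is part of 3 of the comparisons, so their results are not independent. The fit pools the spread over all lines.

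Between M1 and E, 26 of the 109 genes were higher in M1 (23.9%) and 38 lower (34.9%). In all 64 the groups did not overlap, which was counted for the 109 genes alone, with no share over all genes beside it. Over all genes tested, 18.1% were higher and 18.1% lower. Among the 10438 genes with 30 counts in the 18 libraries, 19.6% were higher and 16.9% lower. The median log2 fold change of the 109 was -0.34, beside 0.03 for all genes tested, and the median size, without sign, was 1.10 beside 0.70. The lower share thus stood above the background, the higher share nearer to it.

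The gene with the largest rise in M1 over E was RNF144A, a RING-type ubiquitin ligase. Its TPM was 0.88, 0.9 and 1.05 in E and 48.9, 31.9 and 23.7 in M1, with the EM clones between them at 3.82 to 12.1, for a log2 fold of 5.95 ± 0.49 (SE, edgeR adjusted p = 3.83e-08). FBN2, the microfibril protein fibrillin-2, rose from 0.43, 0.29 and 0.24 TPM in E to 6.41, 2.67 and 3.88 in M1 (log2 fold 3.22 ± 0.47, edgeR adjusted p = 3.21e-05). SLIT3, a secreted guidance ligand, rose from 1.22, 1.46 and 1.56 TPM to 5.82, 10 and 9.44 (2.47 ± 0.57, edgeR adjusted p = 2.26e-03). RFLNA, a filamin-binding protein, rose by a log2 fold of 3.94 ± 0.93 and PF4 by 2.67 ± 0.36.

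The largest fall was that of RARRES1, with a log2 fold of -6.15 ± 0.92 (edgeR adjusted p = 4.33e-05) between the values given above. RHOD, a small GTPase of actin and vesicle movement, fell from 46.9, 45.6 and 50 TPM in E to 2.87, 2.14 and 4.15 in M1 (-4.33 ± 0.38, edgeR adjusted p = 1.05e-07). B3GNT3, which extends mucin-type glycans, fell from 12.5, 17.1 and 13.9 TPM to 1.23, 0.87 and 1.02 (-4.21 ± 0.38, edgeR adjusted p = 1.13e-07). The branching enzyme MGAT4A fell by 3.87 on the log2 scale, ENSG00000270149 by 4.33, the adaptor GRB7 by 3.84 and AARD by 3.60. NLRP2 fell by 2.79, PYCARD by 1.10, EVPL by 1.20 and MGMT by 1.18.

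By role, 5 of the 10 secreted, matrix and protease genes were higher in M1 than in E and 2 lower, with a median log2 fold of 0.75. Of the 10 repair and metabolic genes none was higher and 5 were lower (median -0.90). Of 17 kinases, phosphatases, small GTPases and receptors, 3 were higher and 6 lower (median -0.53), and of 7 glycan enzymes and sugar carriers 1 was higher and 3 lower (median -0.42). Of the 9 developmental factors, WT1 and LBX2 were higher, LHX1 and SIX2 lower. Beside these counts stand 23.9% higher and 34.9% lower for the 109 genes, and 18.1% each over all genes tested. Several of the role counts are near those shares. The role groups hold 79 of the 109 genes and were written with the genes known, so their counts are descriptions.

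Between the EM clones and E, 20 of the 109 were higher in the EM clones (18.3%) and 18 lower (16.5%), beside 11.2% and 11.8% over all genes tested. The median log2 fold was 0.02 for both. Among the 10438 expressed genes 14.1% were higher and 9.97% lower. Of the 38 genes called, 30 had groups without overlap, again with no share over all genes beside it.

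ADCY1, a calcium-stimulated adenylyl cyclase, had the largest rise. It stood at 0.4, 0.39 and 0.37 TPM in E, 11, 10.8 and 10.3 in EM1, 4.36, 3.24 and 2.97 in EM2, and 12.3, 14.9 and 11.4 in EM3 (log2 fold 4.50 ± 0.28, edgeR adjusted p = 5.11e-09). Every EM library was above every E library, and EM2 stood below EM1 and EM3. RNF144A rose by 3.64 ± 0.41, CHST10, a sulfotransferase that makes the HNK-1 glycan, by 2.01 ± 0.27, PF4 by 1.99 ± 0.32, C9orf64 by 1.98 ± 0.17 and WT1 by 1.72 ± 0.23.

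RARRES1 fell in the EM clones by 3.06 on the log2 scale (SE 0.54, edgeR adjusted p = 4.92e-04). Its neighbour LXN, the carboxypeptidase inhibitor latexin, fell by 1.62, the galactose mutarotase GALM by 1.47, RHOD by 1.44 and PRKAR2B, a regulatory subunit of protein kinase A, by 1.33. Of the 10 repair and metabolic genes 6 were lower in the EM clones and none higher. The shares lower and higher were 16.5% and 18.3% for the 109 genes and 11.8% and 11.2% over all genes tested. With 10 genes chosen by hand, this is a description. The call of GALM was lost on the TPM scale (log2 fold -0.71, limma adjusted p = 0.0523).

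Between M1 and the EM clones, 15 of the 109 were higher in M1 (13.8%) and 39 lower (35.8%), beside 14.0% and 14.0% over all genes tested. The 10438 expressed genes gave 12.8% and 14.0%. The median log2 fold was -0.33, beside -0.01. Of the 54 genes called, 34 had groups without overlap, again with no share over all genes beside it.

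SH3GL2, an endophilin of synaptic vesicle endocytosis, had the largest fall. It stood at 9.08, 10.3 and 9.81 TPM in EM1, 4.58, 4.1 and 5.61 in EM2, 8.3, 7.66 and 5.29 in EM3, and 0.42, 0.4 and 0.27 in M1 (log2 fold -4.33 ± 0.29, edgeR adjusted p = 1.67e-09). ENSG00000270149 fell by 3.83, B3GNT3 by 3.69, ADCY1 by 3.55, MGAT4A by 3.43 and the lysosomal channel MCOLN3 by 3.19. FBN2 rose by 3.26 ± 0.32, SLIT3 by 3.11 ± 0.40, RNF144A by 2.31 ± 0.29, RFLNA by 2.2 ± 0.62 and RERG, an estrogen-regulated small GTPase that restrains growth, by 2.03 ± 0.33. The call of RFLNA was lost without M1 replicate 2 (edgeR adjusted p = 0.0594). ADCY1 was thus low in both E and M1 and high in the EM clones, although M1 minus E was 0.95 ± 0.27. For SH3GL2, E lay between M1 and the EM clones, with M1 minus E at -3.06 ± 0.29 and EM minus E at 1.27 ± 0.23.

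Between E and Parental, 5 of the 109 were higher in E (4.59%) and 10 lower (9.17%), beside 5.02% and 5.93% over all genes tested. The expressed genes gave 4.13% and 6.66%, and the median log2 fold was 0.01 beside -0.01. SLIT3 (2.13 ± 0.58, log2 fold and SE), RHOD (1.37 ± 0.34), CACNA2D1 (1.36 ± 0.40), a calcium channel subunit, AGMAT (1.22 ± 0.22), named as an agmatine hydrolase, and MGMT (0.97 ± 0.25) were higher. ADCY1 (-3.34 ± 0.29), TMC5 (-1.91 ± 0.35), C9orf64 (-1.84 ± 0.18), WT1 (-1.65 ± 0.26) and MPV17L (-1.55 ± 0.32) fell most.

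The counts for E and Parental moved with single libraries. In fits with 1 library left out, 3, 2 and 1 genes were called higher without E replicates 1, 2 and 3, and 3 and 2 without Parental replicates 1 and 3. Calls over all genes fell in the same fits, to 483, 363 and 381, and to 759 and 420, from 936. The lower count was 5 without E replicate 2 and 6 without E replicate 3, where 399 and 429 of all genes were lower, beside 1104. The calls of MGMT and CACNA2D1 were each lost without any 1 of E replicates 1, 2 and 3 and of Parental replicates 1 and 3. That of SLIT3 was lost without E replicate 2 or 3 or Parental replicate 1 or 3, and that of RHOD without E replicate 3 or Parental replicate 2, while all kept their sign.

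**Figure D5:**
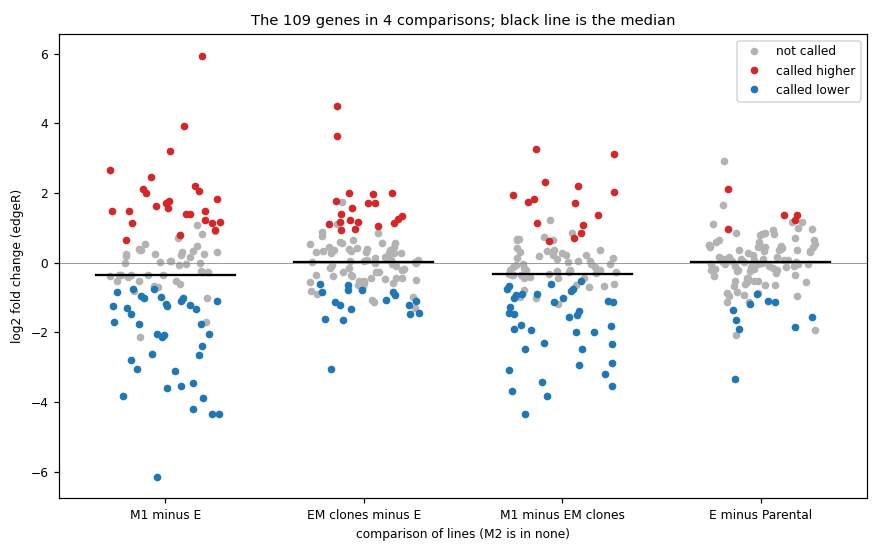
The log2 fold change (y axis) of each of the 109 genes (points) in 4 comparisons among the lines other than M2 (x axis), red where called higher, blue where called lower and grey where not called, with the median as a black line. The medians are -0.34, 0.02, -0.33 and 0.01 from left to right, and the spread is widest in M1 minus E, from -6.15 for RARRES1 to 5.95 for RNF144A.

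Steady genes stood beside these. The 5 with the lowest coefficient of variation of TPM over the 18 libraries were GALNT6 (17.9%), which starts O-linked glycans, TBX20 (17.9%), the zinc finger gene ZFP3 (21%), RPS6KL1 (21.9%), a kinase-like gene, and ACTRT3 (22.4%), an actin-related gene. GALNT6 stayed at 14.4 to 25.4 TPM in 18 libraries and was at 0, 0.02 and 0.01 in M2. CPVL, a carboxypeptidase, MID1IP1, a regulator of lipid synthesis, and MLPH were also well expressed in all 6 lines, at 24.3, 22.4 and 57.14 TPM on average. MLPH and MID1IP1 passed no test among these lines, and M2 had 3 counts of each.

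Follistatin, the secreted activin antagonist encoded by FST, varied widely within lines. It stood at 18.8, 0.76 and 2.07 TPM in Parental, 52.9, 58.8 and 59.7 in E, 2.67, 9.94 and 54.7 in EM1, and 39.3, 4.21 and 206 in EM2. It stood at 3.63, 1.45 and 33.2 TPM in EM3, 2.76, 10.2 and 31.1 in M1, and 0, 0 and 0.04 in M2. In the 7 libraries of the short set outside M2 it was at 31.1 to 206 TPM, and in the 8 of the long set at 1.45 to 39.3. It passed none of the 4 tests.

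The library sets touched many of the genes. In EM1, EM2, EM3 and M1, replicate 3 (short set) was above both other replicates in every one of the 4 clones for 27 of the 109 genes (24.8%, by CPM) and below both for 23 (21.1%). For the 10438 genes the shares were 19.7% and 27.5%. With the set as a term, over the clones alone, the counts were 26 and 39 for M1 minus E, 22 and 19 for EM minus E, and 21 and 45 for M1 minus EM. Over all 18491 genes of that fit they were 3562 and 3603, 1982 and 2013, and 3704 and 3635. The main fit gave 3371 and 3367, 2087 and 2199, and 2614 and 2606 of 18632 genes. In Parental, which is in neither set, the set and the line cannot be told apart.

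TPM and counts did not always agree in size. In 171 calls over the 4 comparisons, the log2 ratio of mean TPM differed from the tested fold by a median of 0.29. It was over 1 apart in 13 calls and opposite in sign in 4. TNK1, a tyrosine kinase, fell by 2.61 on the log2 scale in M1 against E by counts and by 0.58 by TPM, with M1 replicate 3 listed at 14.61 TPM and replicates 1 and 2 at 2.14 and 2.36. TMC5, a channel-like membrane protein, was lower in E than in Parental by counts and not by TPM (log2 fold 0.11, limma adjusted p = 0.941). On TPM, 67.7% of all calls in M1 minus E were higher, beside 50% by counts, and 78.4% in EM minus E, beside 48.7%, with medians of all genes shifted to 0.27 and 0.24.

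The 109 genes lay on 20 chromosomes, most on chromosome 7 (11 genes, 2.38% of its expressed genes and the highest share of any chromosome), 1 and 2 (10 each) and 17 (9). Position was not part of the rule. Of the 113 next genes along the chromosome, on either side, that had 30 counts in the other 18 libraries, 9 were silent in M2 (7.96%), beside 109 of 13301 (0.819%) for neighbours of the 10438 genes. Of these 9, 8 come from the 4 pairs of adjacent members named next, each counted from both sides, and the other is ZNF135, the neighbour of ZSCAN18. The overlapping pairs, whose reads cannot be cleanly told apart, give 6 of the 9, and without them 3 of 107 neighbours (2.8%) were silent. Those 3 are RARRES1 and LXN, each counted as the neighbour of the other, and ZNF135. Overlapping pairs were not taken out of the 0.819%, so the 2.8% has no like share beside it. An expressed neighbour was found on both sides for 30 members, on 1 side for 53 and on neither for 26. Of the 83 members with such a neighbour, 74 had only neighbours with more than 3 M2 counts, and in 65 each of these had at least 100. A sum above these limits is not a kept level. FBXO27, next to ACP7, had 5 M2 counts, at 0.0267 ± 0.0306 TPM against 29.8 in the other libraries. ALDH2, next to ENSG00000257767, had 9, at 0.0433 ± 0.0666 against 28.7. KRT81, next to KRT83, had 127, at 0.5 ± 0.407 against 759. How many neighbours kept their level was not counted.

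There were 4 pairs of neighbours among the 109: RARRES1 and LXN, STRA6 and CCDC33, TSTD1 and ENSG00000270149, and LRRC61 and ZBED10P. RARRES1 (chr3:158696892-158732696) and LXN (chr3:158645822-158672693) fell together from E to M1, LXN by 3.55 on the log2 scale (edgeR adjusted p = 2.42e-04). LXN stood at 25.5, 26.4 and 26.2 TPM in E and 3.47, 4.55 and 1.22 in M1. The other side of RARRES1 did not share its silence: MFSD1, a lysosomal transporter whose start lies 498 bases away on the opposite strand, was at 31.4 ± 5.97 TPM in M2 and 23.2 in the other libraries. GARIN5A shares its start region with EMC10, a subunit of a membrane insertion complex, 353 bases away on the opposite strand, and there EMC10 was low too, at 0.24 ± 0.122 TPM in M2 against 38.3 elsewhere.

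Overlapping and near-identical genes limit some of the values, since the strand setting of the counting is not given in the sources used here. Of the 109, 33 overlapped another protein-coding gene, 11 of them on the same strand. Reads of TSTD1 and ENSG00000270149, of LRRC61 and ZBED10P, and of STRA6 and CCDC33 cannot be cleanly told apart, and SULT1A1, PTPN20, MT1F, KRT83 and PF4 have close copies with which reads may be shared. In M2 the overlap was 1-sided in some cases: LXN had 1 count where GFM1 on the opposite strand had 11641, COCH had 3 beside 5310 for STRN3, and RAB42 had 2 beside 3823 for TAF12. In others the overlapping gene was low in M2 too. EMC10, on the strand opposite GARIN5A, had 37 M2 counts and at least 1611 in each other library. On the same strand, F11R with ENSG00000270149 had 6 and at least 314, and ALDH2 with ENSG00000257767 had 9 and at least 886.

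Some relatives of the silent genes were read in M2. Of 30 pairs of a member and a family relative, written by hand with the members known and no sample of all relatives, 29 relatives had 30 counts in each of the 18 other libraries, and all 29 also had 30 in each M2 library. MT1F had no M2 count and its relative MT2A was at 5.25e+03 ± 918 TPM there. The kinases PAK3 and PAK6 had M2 sums of 2 and 3, and PAK1 was at 28.3 ± 1.27 and PAK4 at 13.3 ± 4.42 TPM. PRKAR2A was at 49.4 ± 8.81 TPM in M2 beside 3 counts of PRKAR2B, GALNT2 at 45.4 ± 19.3 beside 3 of GALNT6, and GSTM4 at 3.92 ± 0.377 beside 1 of GSTM3. Relatives that lie next to a member, outside these pairs, could be low as well. KRT81, the keratin next to KRT83, was at 0.5 ± 0.407 TPM in M2 and 759 in the other libraries, and the chemokine CXCL1, next to PF4, was at 0.457 ± 0.11 and 519.

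The exception among the pairs was XKR6, a relative of the lipid scramblase XKR8. XKR8 stood at 1.97 ± 0.142 TPM in E and 2.74 ± 0.451 in M1 and had no count in M2. XKR6 had 202 counts in M2, at 1.83 ± 0.999 TPM, and at most 0.04 TPM in any other library. This pair was singled out after its values were seen.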

How the data were processed

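The authors deposited 1 RSEM gene table per library. Per the submitters' processing notes, bcl2fastq 2.20.0.422, cutadapt 2.4, STAR 2.7.2b and RSEM 1.3.2 were used with hg38; the annotation release and strand setting are not given in the sources used here. Per the file headers, the deposited values are expected counts, TPM and effective lengths (other: bases per gene); 7.44 to 8.61% of the expected counts in a library were not whole, and all were rounded. GENCODE 29 gave gene types and positions, and RefSeq the promoters.

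The members, lists, role groups and relatives were chosen with earlier results of these data known. Tests used R 4.3.3 and edgeR 4.0.16 (TMM, quasi-likelihood F-test, robust) on 21 libraries in 1 fit, 1 mean per line, 14 residual degrees of freedom, normalization factors 0.92 to 1.13; the script was tested on simulated data. Alternatives were other filters, DESeq2 1.42.0, limma 3.58.1 (voom, and trend on log2(TPM + 1) with a mean TPM of at least 1), a replicate block, the library set as a term, no M2 libraries and each library left out. Named genes were members on a list, the 15 highest in TPM, the 5 largest called changes without overlap per direction and comparison, adjacent members, those at the limits and the 5 steadiest; genes named by role, position or relatives were added after their values were seen. The first 300 transcript bases replaced the promoter table after the files were seen, and the planned motif search was left out with it. The values of 1 member are not reported here. Gene lists held 172 genes in 12 lists. Values come from 109 genes in 18 to 21 libraries with totals of 24.6 to 48.1 in units of 1e6, and intervals cover counting error only.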

Additional observations from a re-analysis of the deposited data

How the results depend on the processing

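The number of genes depends on the limits: 31 with no M2 count, 183 with an M2 sum of up to 10, and 71 (60 of them shared) by TPM limits, beside 109. Other single changes of the limits gave 85 to 133. Leaving out 1 library gave 109 to 164, and with the limits kept this can only add genes. Among the tested counts, the lower calls of EM minus E were 11 on the TPM scale, where 103 of the genes were tested, beside 18. Over all genes, 727 of 13889 were lower on that scale, beside 2199 of 18632. The higher calls of E minus Parental were 14 without a low-count filter, 8 by the DESeq2 Wald test and 11 with the replicate number as a block, beside 5. Over all genes the same fits called 1989 of 39460, 1500 of 18632 and 1802 of 18632 higher, beside 936 of 18632. Not every pair of libraries sharing a number deviated together (1 of 3, 6 of 9, 6 of 9 and 0 of 3 pairs correlated above 0.1 in the order M1 minus E, EM minus E, M1 minus EM and E minus Parental), so numbers were not taken as pairs; 6 of 6, 8 of 12, 6 of 12 and 5 of 6 libraries had their highest correlation with the same number. The block gave 28 and 40 higher and lower calls for M1 minus E, 21 and 24 for EM minus E, 18 and 43 for M1 minus EM, and 13 lower for E minus Parental. Over all genes it gave 3847 and 4077, 2663 and 3052, 3011 and 2945, and 1914 lower, each above the main fit. With 1 library left out, the higher and lower counts ran from 19 to 24 and 32 to 36 for M1 minus E, 14 to 20 and 12 to 22 for EM minus E, 12 to 16 and 32 to 39 for M1 minus EM, and 1 to 5 and 5 to 11 for E minus Parental. Over all genes they ran from 2427 to 3521 and 2517 to 3517 for M1 minus E. They were 1001 to 2508 and 1324 to 2784 for EM minus E, and 1954 to 2774 and 1798 to 2550 for M1 minus EM. For E minus Parental they were 363 to 759 and 399 to 894. Of 708 alternative values for 40 single-gene tests, 688 kept sign and call, 19 lost the call, and 1, TMC5 in E minus Parental on the TPM scale (log2 fold 0.11), changed sign. The cause of these changes was not tested.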
